A study of Mus musculus with 47 samples.

Results

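The genes followed here encode 10 of the plasma proteins that the liver secretes into blood: Alb, Afp, Apoa1, Apoa2, Apob, Apoh, Fga, Fgb, Ambp and Ahsg. They were taken by symbol, from the Ensembl identifiers of the rows and the GRCm38 annotation, and all 10 were present among the 53402 genes of the adult count table and the 55471 genes of the neonatal one. Filtering on low counts kept 19310 adult and 20196 neonatal genes for testing, and with them 10 of 10 members in adults and 9 of 10 in neonates, where Ahsg was too low.

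Plasma protein genes are classical tissue-restricted genes. Hepatocytes, and for some of them the yolk sac or the gut, transcribe them at high rates, whereas most other cells leave them silent. Medullary thymic epithelial cells (mTECs) are an exception, because they transcribe many genes of other organs at low levels and so present their products to developing T cells. Aire is a nuclear protein of mature mTECs on which much of this ectopic transcription depends. EED belongs to the core of Polycomb repressive complex 2, the enzyme complex that methylates lysine 27 of histone H3.

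The libraries came from thymus of C57BL/6 mice, sorted as EpCAM-positive cells without CD45 or Ly51, and split by surface MHC class II into mTEChi and mTEClo. There were 47 libraries in 11 groups. The adult table held 8 mTEClo WT libraries and 7 mTEChi WT libraries from mice of 4 to 5 weeks, with 4 AireKO libraries of each fraction from males of 5 to 6 weeks. The neonatal table held mTEClo from Ctrl mice of 1 to 3 days (3 libraries), EEDcKO mice of 1 to 6 days (4) and AireEEDdKO mice of 4 to 6 days (3). Its mTEChi came from Ctrl mice (5 libraries) and EEDcKO mice (3), both of 1 to 6 days, and from AireKO (3) and AireEEDdKO mice (3), both of 4 to 6 days. AireKO mice lack Aire in every cell, whereas EEDcKO mice lose floxed Eed through Cre driven by Foxn1, which acts in thymic epithelium. AireEEDdKO mice carry both defects, the alleles of the Ctrl mice are not given in the sources used here, and some neonatal libraries pooled males and females. Nothing in the labels ties each library to its own animal, so p-values measure the spread between libraries, which may in part be technical.

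Total counts ran from 1602125 to 3938588 (median 2998595) in adults and from 1578579 to 4817418 (median 3020965) in neonates. Levels are given as CPM, the usual unit of counts scaled to a common library size. Aire fell from 818 ± 56 CPM (SD) in adult mTEChi WT to 29.3 ± 11.6 in AireKO. In neonatal mTEChi it was at 619 ± 154 CPM in Ctrl, 70.6 ± 38.7 in AireKO and 21.6 ± 11.2 in AireEEDdKO. Eed fell in neonatal mTEChi from 29.1 to 14.8 CPM with EEDcKO (log2 fold change −1.0 ± 0.22 SE, adjusted p = 0.00139, edgeR), and in mTEClo from 24.2 to 15.2 CPM, by less than 2-fold (−0.67 ± 0.22, adjusted p = 0.023). The count is of the whole gene and may include exons outside the deletion. All 11 mTEC markers (Epcam, Krt5, Cd80 and others) were detected in every group. In 6 adult libraries, which were all 4 of mTEChi AireKO and replicates 3 and 4 of mTEClo AireKO, every mitochondrial gene had a count of 0, whereas the other libraries held 6178 to 10410 mitochondrial counts. How these 6 libraries came to differ is not given in the sources used here. Within adult mTEChi genotype and this kind of library cannot be told apart.

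The members lie at 8 places in the genome. Alb (chr5:90460897-90476602, plus strand) and Afp (chr5:90490737-90508907, plus strand) are neighbours 14.1 kb apart. Fga (chr3:83026076-83033627, plus strand) and Fgb (chr3:83040141-83049863, minus strand) lie 6.51 kb apart. Apoa1 is at chr9:46228580-46230466, Apoa2 at chr1:171225054-171226379, Apob at chr12:7977648-8016835, Apoh at chr11:108343354-108414396, Ambp at chr4:63143275-63154799 and Ahsg at chr16:22891277-22899449, all in GRCm38. Reads were counted without strand, so counts of Afp, Ahsg and Apoh may include reads of Gm43449, Gm30505 and Prkca, which overlap them on the opposite strand.

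Sequence in front of the RefSeq start was read for all 10 members (GRCm38.p6, 250 bases before the start, on the strand of the gene). The letters GTTAAT (reverse complement ATTAAC) stood in 4 of 10 members, and these were Alb, Afp, Fga and Fgb. Of 32851 RefSeq promoters of the same length, 6.43% held them. The 4 sequences are shown because these 4 genes were also the members at or near 0 in mTEChi AireKO at both ages, as described further on. They are neighbours in pairs, Alb with Afp and Fga with Fgb, and a link between these letters and Aire was not tested. Capitals mark GTTAAT or ATTAAC, whose first base lay 32 bases before the start in Alb, 105 in Afp, 43 in Fga and 29 in Fgb.
Alb, chr5:90460620-90460869, plus strand: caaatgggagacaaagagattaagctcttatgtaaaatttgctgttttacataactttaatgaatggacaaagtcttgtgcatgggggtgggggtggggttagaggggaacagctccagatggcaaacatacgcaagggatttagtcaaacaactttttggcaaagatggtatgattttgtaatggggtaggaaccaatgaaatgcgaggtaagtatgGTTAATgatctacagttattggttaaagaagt
Afp, chr5:90490464-90490713, plus strand: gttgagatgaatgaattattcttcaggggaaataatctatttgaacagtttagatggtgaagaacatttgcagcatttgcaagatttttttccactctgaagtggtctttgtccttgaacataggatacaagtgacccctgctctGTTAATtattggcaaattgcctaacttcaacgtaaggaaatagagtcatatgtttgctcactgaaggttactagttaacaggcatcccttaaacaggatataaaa
Fga, chr3:83025903-83026152, plus strand: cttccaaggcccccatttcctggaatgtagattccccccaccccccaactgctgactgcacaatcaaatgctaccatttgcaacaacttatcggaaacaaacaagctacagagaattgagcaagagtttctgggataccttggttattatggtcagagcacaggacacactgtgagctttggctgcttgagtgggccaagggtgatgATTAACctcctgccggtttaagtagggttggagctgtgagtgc
Fgb, chr3:83049864-83050113, minus strand: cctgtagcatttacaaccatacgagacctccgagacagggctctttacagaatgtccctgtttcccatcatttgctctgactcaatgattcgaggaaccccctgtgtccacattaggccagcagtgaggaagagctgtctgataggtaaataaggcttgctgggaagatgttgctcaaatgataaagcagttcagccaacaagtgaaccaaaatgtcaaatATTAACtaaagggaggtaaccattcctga
The forkhead core TGTTTAC (reverse GTAAACA) stood in Apoa2 and Apoh, 77 and 71 bases before the start, and in 3.17% of all promoters. CCAAT (reverse ATTGG) stood in 4 of 10 members and in 33.8% of all promoters, and TATAAA (reverse TTTATA) in 3 of 10 members and 12.4% of all. Member promoters held 1 to 7 CpG dinucleotides (median 2), against a median of 6 over all promoters. No match of 1 motif overlapped another, the motifs were chosen after the sequences had been read, and a match describes letters, not binding.

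In mTEChi of adult WT mice all 10 genes were read, at levels that spanned more than an order of magnitude per length. Apoa1, the main protein of high-density lipoprotein, came out highest at 31.0 ± 5.45 CPM per kb of exon (SD, n = 7). Apob, the scaffold of chylomicrons and low-density lipoprotein, followed at 23.9 ± 4.54, and Apoa2, a further high-density lipoprotein protein, at 18.7 ± 4.93 CPM per kb. Ambp, the precursor of alpha-1-microglobulin and bikunin, gave 12.2 ± 2.76 CPM per kb. Alb, the major carrier protein of plasma, gave 8.82 ± 2.04. The fibrinogen chains Fgb and Fga, which clotting turns into fibrin, gave 6.88 ± 1.91 and 5.79 ± 1.91 CPM per kb. Afp, the fetal counterpart of albumin, stood at 3.85 ± 1.59, Apoh, a phospholipid-binding protein, at 2.67 ± 0.496, and Ahsg, the calcium-binding fetuin-A, lowest at 0.806 ± 0.434 CPM per kb. Neighbours in this order overlapped in mean ± SD, except Apoh and Ahsg.

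In neonatal mTEChi Ctrl the same 3 apolipoproteins led, with Apoa2 at 22.9 ± 5.81, Apoa1 at 20.1 ± 8.07 and Apob at 17.8 ± 3.93 CPM per kb (SD, n = 5). Alb (12.2 ± 4.55 CPM per kb) and Ambp (9.52 ± 1.45) followed. Afp gave 4.81 ± 2.43, Fgb 4.02 ± 0.429, Fga 3.34 ± 0.891, Apoh 2.29 ± 1.18 and Ahsg 0.554 ± 0.465 CPM per kb. Here mean ± SD of neighbours did not overlap between Ambp and Afp or between Apoh and Ahsg. Adult and neonatal values come from separate tables, so the difference between ages was not tested.

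Which members separate the mature fraction from the MHC class II low fraction in WT adults? In mTEChi, 9 of 10 rose over mTEClo with an adjusted p below 0.05 and at least a 2-fold change (edgeR quasi-likelihood test, Benjamini-Hochberg over all genes, as throughout), against 36.1% of all genes called in either direction and 23.7% called higher. The median log2 difference of the members was 4.50, and that of all genes 0.004. Ahsg was the exception, at 1.77 ± 0.953 CPM in mTEChi (SD, n = 7) and 2.66 ± 0.983 CPM in mTEClo (n = 8; log2 difference −0.53 ± 0.43, adjusted p = 0.274).

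Members of the albumin family and the fibrinogen chains were nearly absent from mTEClo WT. The 8 libraries together held 4 counts of Alb, 2 of Afp, 3 of Fga and 5 of Fgb. Alb ranged from 15.0 to 28.2 CPM (median 20.01) in mTEChi WT and from 0 to 1.15 CPM (median 0) in mTEClo WT, a log2 difference of 6.61 ± 0.38 (SE). Every mTEChi library was above every mTEClo library. Afp ranged from 6.81 to 22.3 CPM (median 12.6) in mTEChi and from 0 to 0.262 CPM in mTEClo, a ratio of pooled counts of 165 (95% exact interval 45.2 to 1370, counting error only). Fga ranged from 9.30 to 24.8 CPM (median 18.9) against 0 to 0.636 CPM, a ratio of pooled counts of 136 (46.2 to 665). Fgb, at 16.5 to 37.8 CPM (median 27.3) against 0 to 1.72 CPM, was higher in mTEChi by 6.69 ± 0.41 on the log2 scale. Without mTEClo WT replicate 1, which held 3 of the 5 counts of Fgb, the log2 difference was 7.62 for Fgb and 7.27 for Alb.

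Apolipoproteins were also higher in mTEChi WT, and all 8 mTEClo libraries held counts of Apob and Apoa1, 6 of Apoa2 and 3 of Apoh. Apob ranged from 240 to 423 CPM (median 348) in mTEChi and from 4.03 to 43.2 CPM (median 11.4) in mTEClo, a difference of 21.6-fold (log2 4.57 ± 0.30). Apoa1 ranged from 26.6 to 45.6 CPM (median 36.8) against 1.57 to 7.72 CPM (median 4.30), a log2 difference of 3.12 ± 0.27. In both genes the groups stood apart. Apoa2, at 6.30 to 14.2 CPM against 0 to 1.27 CPM, differed by 4.43 ± 0.40 on the log2 scale, and Apoh, at 3.21 to 5.40 CPM against 0 to 1.27 CPM, by 3.70 ± 0.45. Ambp differed least among the called genes, with 10.7 to 22.3 CPM (median 17.9) in mTEChi against 3.82 to 11.3 CPM (median 7.77) in mTEClo (log2 1.10 ± 0.27, adjusted p = 0.000603). Its groups overlapped, and with age as a term its difference of 0.92 was below 2-fold.

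The fractions also differed in markers of other cells. Of 6 thymocyte markers tested, 5 were higher in mTEChi WT (summed level 83.9 to 118 CPM against 28.7 to 40.7 in mTEClo WT), as were 5 of 5 myeloid markers tested (243 to 309 CPM against 38.0 to 68.0), with none of either list at 0 in either group. Their part in the differences above was not tested. In bulk libraries, fewer cells of a type and less RNA per cell cannot be told apart.

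**Figure D1:**
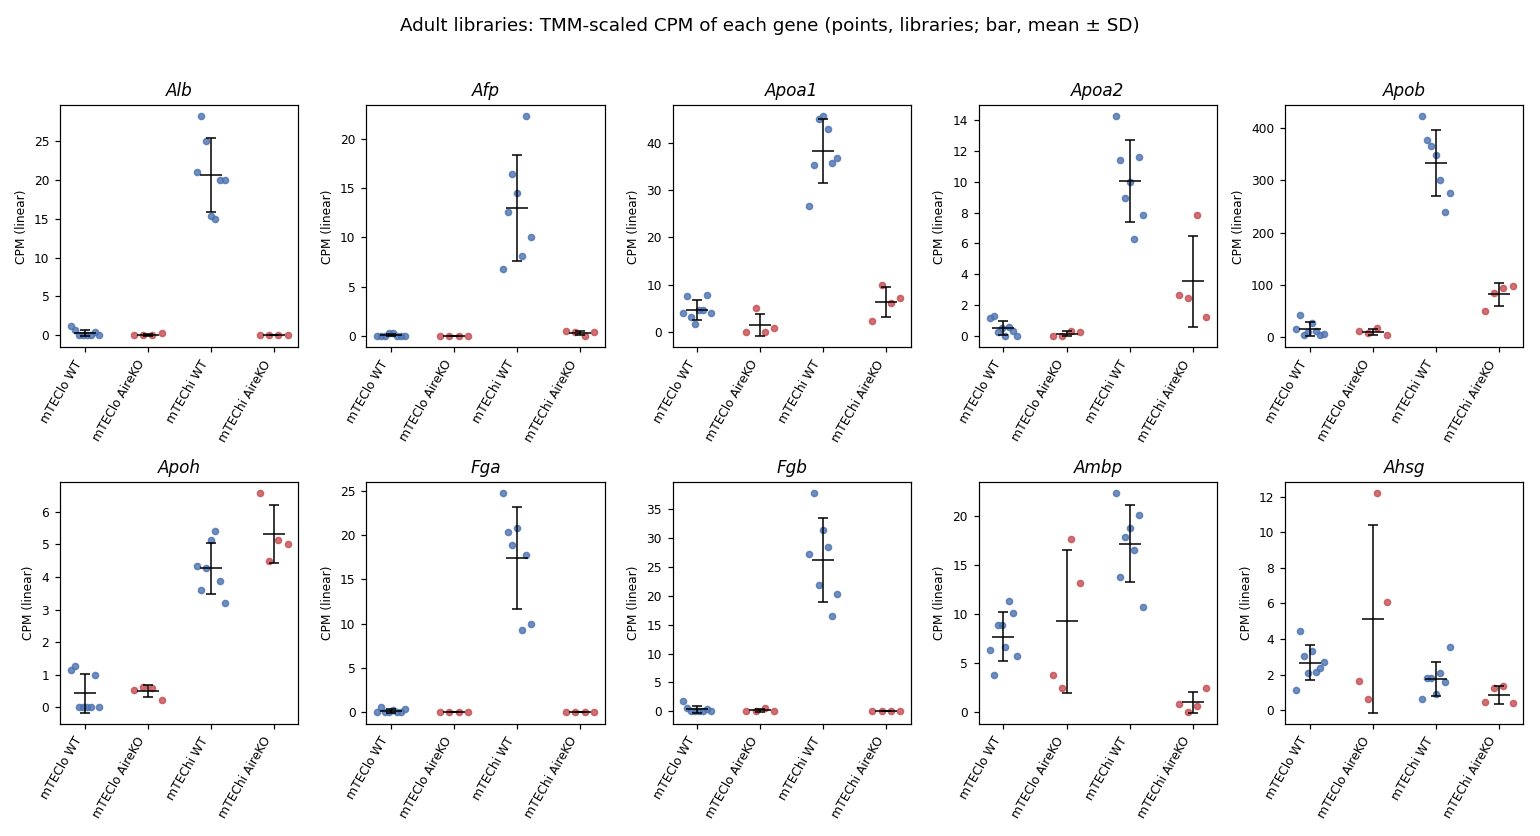
Levels of the 10 genes in adult mTEClo and mTEChi of WT and AireKO mice, in CPM on linear axes, with 1 panel per gene. Points are libraries and bars are mean ± SD. Alb, Fga and Fgb sat at 0 in all 4 mTEChi AireKO libraries, whereas Apoh of mTEChi AireKO (4.50 to 6.58 CPM) overlapped WT (3.21 to 5.40 CPM).

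The adult mTEChi comparison asks which members differ between AireKO and WT. With AireKO, 8 of 10 fell and none rose, against 23.4% of all genes called and 17.8% called lower. The median log2 fold change was −3.32, also with the 3 genes at 0 set at their bound, and that of all genes was −0.015.

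Albumin and fibrinogen transcripts were not detected. Alb, Fga and Fgb each had a count of 0 in all 4 mTEChi AireKO libraries. Against the floor of 3 counts over the group, WT was at least 69.2-fold higher for Alb (adjusted p = 1.01e-10), at least 58.3-fold higher for Fga (2.57e-09) and at least 87.8-fold higher for Fgb (3.02e-10). Afp kept 3 counts in all, with 0.439, 0.409, 0 and 0.418 CPM in the 4 libraries against 13 ± 5.34 CPM in WT (SD, n = 7). Its ratio of pooled counts was 44.9 (95% exact interval 15.2 to 219), with an adjusted p of 8.03e-09.

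Ambp fell 16.8-fold (log2 fold change −4.04 ± 0.51, adjusted p = 1.71e-07), from 17.1 ± 3.89 CPM in WT to 0.878, 0, 0.685 and 2.51 CPM. All 4 AireKO libraries were below the lowest WT library at 10.7 CPM, and without AireKO replicate 4 the log2 fold change was −4.91. Ahsg gave 0.439, 1.23, 1.37 and 0.418 CPM, within the WT range of 0.620 to 3.57 CPM or just below it (log2 −0.99 ± 0.67, adjusted p = 0.213).

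The apolipoproteins fell less, and 1 did not pass the test. Apoa1 came to 2.19, 9.82, 6.16 and 7.10 CPM in AireKO against 38.3 ± 6.73 CPM in WT, a 6.06-fold decrease (log2 −2.60 ± 0.34, adjusted p = 3.71e-07). Apob came to 50.0, 85.1, 93.8 and 98.6 CPM against 333 ± 63.2 CPM, a 4.07-fold decrease (log2 −2.01 ± 0.33, adjusted p = 8e-06). For both genes every AireKO library was below the lowest WT library, and each still held at least 5 counts of Apoa1 and 114 of Apob. Apoa2, with 2.63, 2.46, 7.87 and 1.25 CPM against 10.0 ± 2.65 CPM, fell by 1.40 ± 0.36 on the log2 scale (adjusted p = 0.00176), and its replicate 3 lay within the WT range (log2 −2.23 without it). Apoh gave 6.58, 4.50, 5.13 and 5.01 CPM against 4.26 ± 0.791 CPM in WT (log2 0.29 ± 0.34, adjusted p = 0.49).

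With kind of library (with or without mitochondrial counts) as a term, which the mTEClo AireKO libraries alone allow to be estimated, 4 of 10 members were called: Alb, Fgb and Ambp, and newly Ahsg (log2 −3.91, adjusted p = 0.000551). Of the 5 that lost their call, Apob gave −2.11 (adjusted p = 0.0644), Apoa2 −4.19 (0.247) and Apoa1 −0.17 (0.997). Afp gave −5.27 and Fga was still at 0 in AireKO, both with an adjusted p of 1. The mTEClo AireKO libraries together held 1 count of Alb, 2 each of Fgb and Apoa2, and 0 of Afp and Fga. For these genes the fit could not separate genotype from kind of library, so a call kept or lost here decides nothing. Thymocyte markers were lower in AireKO (5 of 6 tested, summed level 45.2 to 58.1 CPM against 83.9 to 118, none at 0 in either group) while summed myeloid markers were at 355 to 408 CPM against 243 to 309 (1 of 5 higher, 2 lower, none at 0), and their part in the result was not tested.

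In adult mTEClo, AireKO moved few members: Apoa1 fell and Ahsg rose, 2 of 10, against 8.30% of all genes called. The median log2 fold change was −0.55, with 0.001 for all genes. Apoa1 gave 0, 5.01, 0 and 0.728 CPM in AireKO against 4.63 ± 2.11 CPM in WT (SD, n = 8; log2 −2.04 ± 0.59, adjusted p = 0.0125). The decrease lost its call without AireKO replicate 3 (log2 −1.52, adjusted p = 0.0734) or replicate 4 (−1.83, 0.056), and with the libraries that hold mitochondrial counts alone (−0.88, 0.381), and it was larger without replicate 2 (−3.62). Among markers, 4 of 7 cortical epithelial ones were higher (summed level 663 to 835 CPM against 487 to 595 in WT, none at 0) and of 5 myeloid ones 2 were higher and 1 lower (106 to 142 CPM against 38.0 to 68.0, none at 0), and their part in the result was not tested.

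Ahsg gave 1.62, 0.626, 12.2 and 6.07 CPM in mTEClo AireKO against 2.66 ± 0.983 CPM in WT (log2 1.14 ± 0.40, adjusted p = 0.0357). Its high values were replicates 3 and 4, the libraries of 6-week-old mice and without mitochondrial counts. Without AireKO replicate 3 the log2 difference was 0.38 (adjusted p = 0.582), and with replicates 1 and 2 alone it was −1.14. Ambp split the same way, at 3.79, 2.50, 17.6 and 13.1 CPM against 7.71 ± 2.50 CPM in WT (log2 0.38, adjusted p = 0.421), and with replicates 1 and 2 alone it was called lower (−1.30, adjusted p = 0.0424). Age and kind of library cannot be told apart among these 4 libraries.

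Other members in mTEClo AireKO were near the level of WT mTEClo. Apob gave 11.4, 7.51, 17.3 and 4.13 CPM against 15.4 ± 13.5 CPM in WT (log2 −0.48, adjusted p = 0.499). Apoh gave 0.541, 0.626, 0.596 and 0.243 CPM, within the WT range of 0 to 1.27. Afp and Fga had a count of 0 in all 4 libraries, Alb had 1 count, Fgb 2 and Apoa2 2, at levels where a further decrease was not detectable at this depth.

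Within adult AireKO mice, mTEChi and mTEClo still differed in 6 of 10 members, against 35.2% of all genes called. The 4 apolipoproteins were higher in mTEChi: Apob by 3.03 ± 0.46 on the log2 scale (adjusted p = 1.73e-06), Apoh by 3.40 ± 0.58 (1.07e-05), Apoa1 by 2.57 ± 0.63 (0.000861), and Apoa2 with a ratio of pooled counts of 20.7 (95% exact interval 5.34 to 177, adjusted p = 5.62e-05). Ambp and Ahsg were lower in mTEChi, by −3.32 ± 0.57 (adjusted p = 1.17e-05) and −2.66 ± 0.60 (0.000381). The libraries of Apoa1, Ambp and Ahsg overlapped between fractions. The log2 difference moved to 4.09 for Apoa1 without mTEClo replicate 2, to 3.2 for Apoa2 and −4.2 for Ambp without mTEChi replicates 3 and 4 in turn, and to −1.92 for Ahsg without mTEClo replicate 3, all still called. With the replicate number as a block, 3 of 3 members tested were called, all higher in mTEChi. All 4 mTEChi libraries but only mTEClo replicates 3 and 4 lack mitochondrial counts, so fraction and kind of library are partly mixed here. With the libraries without mitochondrial counts alone, 5 of 5 members tested were called, 3 higher and 2 lower in mTEChi.

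The effect of AireKO was set against itself between the fractions, with an interaction term. It was more negative in mTEChi than in mTEClo for 4 of 10 members, against 13.7% of all genes called. Ambp differed most clearly (−4.42 ± 0.62, adjusted p = 6.21e-06; −5.3 without mTEChi AireKO replicate 4). Fgb (−9.04, adjusted p = 0.0111) and Alb (−8.21, 0.0335) rested on 1 library each, since without mTEClo AireKO replicate 3 Fgb gave −6.69 (adjusted p = 1) and without replicate 4 Alb gave −6.60 (1). Ahsg (−2.14 ± 0.77, adjusted p = 0.0416) lost its call without any of 12 libraries, at −2.31 to −1.38. Apob missed the threshold (−1.54 ± 0.59, adjusted p = 0.0548). With the replicate number as a block 2 members were called.

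**Figure D2:**
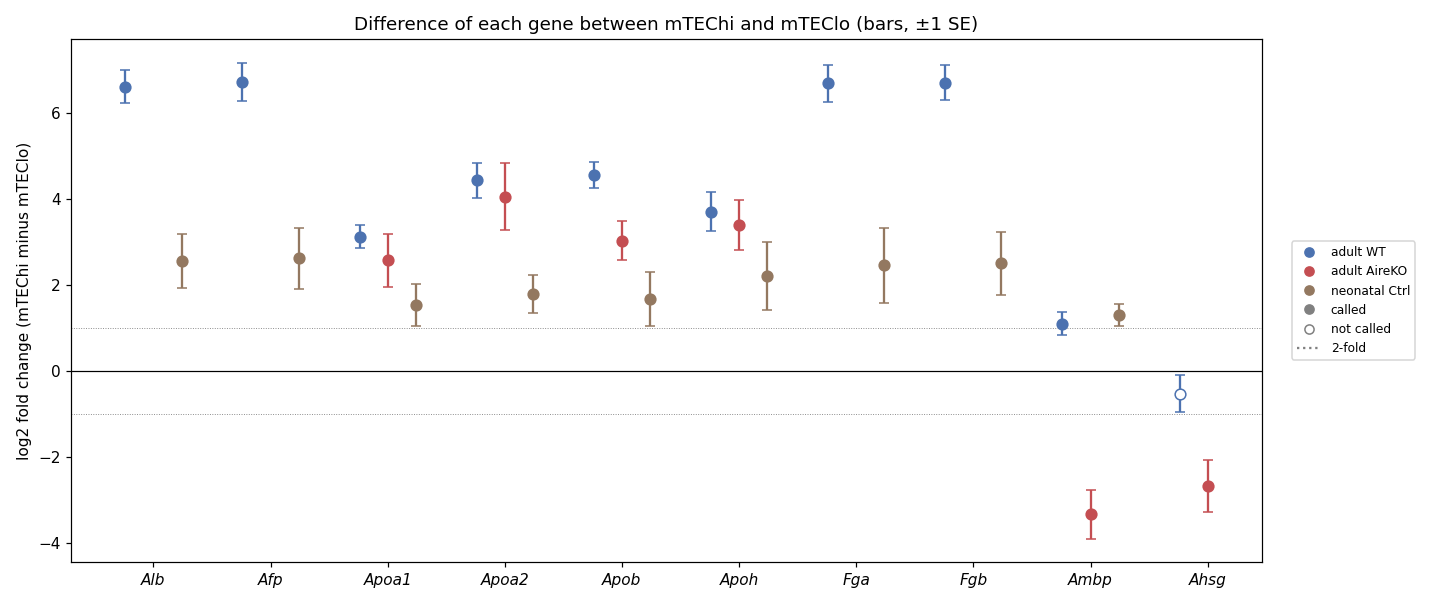
Difference between mTEChi and mTEClo for each gene, as log2 fold change ± SE, in adult WT, adult AireKO and neonatal Ctrl mice. Filled symbols passed the test and open ones did not, and genes with a count of 0 throughout a group are not drawn, so Alb, Afp, Fga and Fgb have no AireKO symbol. The apolipoproteins lay above 0 in all 3 contrasts, whereas Ambp and Ahsg lay below 0 in AireKO.

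In neonatal Ctrl mice 9 of 9 members tested were higher in mTEChi than in mTEClo, against 20.7% of all genes called and 13.8% called higher. The median log2 difference was 2.2, with −0.005 for all genes. Each neonatal mTEClo Ctrl library held counts of every member. Alb gave 3.72, 5.26 and 5.63 CPM in mTEClo and 38.8, 23.1, 41.5, 20.9 and 19.0 CPM in mTEChi, a log2 difference of 2.56 ± 0.63 (adjusted p = 0.00334). Afp gave 3.38, 1.05 and 3.38 CPM against 16.9, 28.9, 11.6, 16.6 and 7.03 CPM (2.61 ± 0.71, adjusted p = 0.00656). All mTEChi libraries were above all mTEClo libraries for both.

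Fibrinogen chains differed by a like amount, Fga by 2.46 ± 0.87 (adjusted p = 0.0345) and Fgb by 2.51 ± 0.73 (0.0132) on the log2 scale. In mTEClo, Fga gave 1.35, 2.81 and 1.13 CPM and Fgb 2.03, 4.91 and 0.563 CPM. In mTEChi, Fga gave 9.56, 6.93, 13.8, 11.6 and 8.43 CPM and Fgb 12.9, 14.4, 16.2, 15.8 and 17.1 CPM. No library of either fraction reached into the range of the other.

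Apob gave 126, 57.9 and 46.7 CPM in mTEClo against 179, 327, 267, 244 and 225 CPM in mTEChi (log2 1.67 ± 0.63, adjusted p = 0.0412). Apoa1 differed by 1.53 ± 0.48 (adjusted p = 0.0169), Apoa2 by 1.79 ± 0.44 (0.00348), Apoh by 2.2 ± 0.79 (0.032) and Ambp by 1.30 ± 0.26 (0.000603). Only the libraries of Apoh overlapped. Leaving out 1 library at a time left 4 to 8 members called: Apob kept its call in 2 of 8 cases, Apoh and Fga in 3 each and Fgb in 6, and the lowest count came without mTEClo Ctrl replicate 3, where Apoa1 gave 1.44 (adjusted p = 0.0696). Without mTEClo Ctrl replicate 2, Fgb gave 3.4. DESeq2 called 6. Of the cortical epithelial markers 6 of 7 were lower in mTEChi (summed level 507 to 1188 CPM against 2483 to 3736 in mTEClo), whereas 4 of 6 mesenchyme markers (242 to 317 CPM against 121 to 129), 3 of 7 thymocyte markers (96.0 to 119 against 26.4 to 40.0) and 3 of 6 myeloid markers (257 to 278 against 105 to 171) were higher. None of these markers was at 0 in either group, and their part in the result was not tested.

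**Figure D3:**
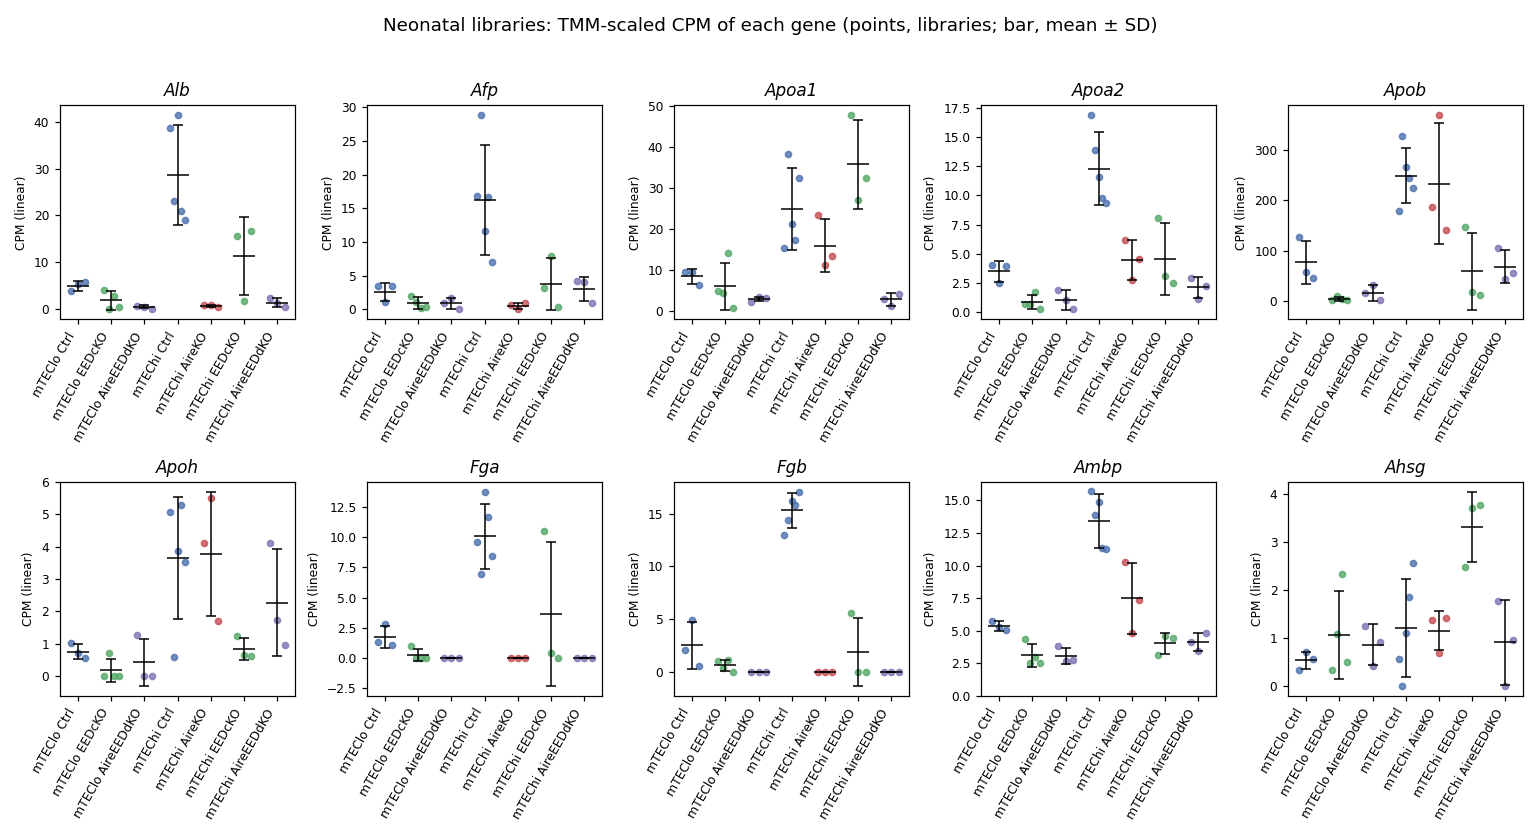
Levels of the 10 genes in the 7 neonatal groups, in CPM on linear axes, with 1 panel per gene. Points are libraries and bars are mean ± SD. Fga and Fgb sat at 0 in all libraries of AireKO and AireEEDdKO mice, whereas Apob in mTEChi AireKO spread over the Ctrl range.

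Loss of Aire in neonatal mTEChi lowered 5 of 9 members tested and raised none, against 16.4% of all genes called and 12.8% called lower. The median log2 fold change was −1.42, also with Fga and Fgb at their bound, and 0.035 for all genes. Fga and Fgb had a count of 0 in all 3 AireKO libraries. Ctrl was at least 21.6-fold higher for Fga (adjusted p = 0.00349) and at least 32.9-fold higher for Fgb (0.000773). With age as a term Fga missed the threshold (adjusted p = 0.088), with its AireKO counts still at 0.

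Alb held 1 count in each of the 3 AireKO libraries (0.685, 0.689 and 0.283 CPM), a ratio of pooled counts of 59.4 (95% exact interval 20.2 to 289, adjusted p = 0.000136). Afp gave 0.685, 0 and 0.848 CPM and was 31.7-fold lower (log2 −4.61 ± 0.94, adjusted p = 0.000958). Both stood below every Ctrl library, and without AireKO replicate 3 Afp gave −5.34. Ambp gave 10.3, 4.82 and 7.35 CPM against 15.8, 13.9, 14.9, 11.4 and 11.2 CPM in Ctrl. Its decrease passed the test on p but stayed under 2-fold (log2 −0.83 ± 0.26, adjusted p = 0.0182), without overlap of the groups, and it was called with the scaling by library size alone (−1.04).

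Among the neonatal apolipoproteins only Apoa2 was called. It gave 6.17, 2.75 and 4.52 CPM in AireKO against 16.9, 13.9, 11.6, 9.77 and 9.37 CPM in Ctrl (2.74-fold lower, log2 −1.42 ± 0.44, adjusted p = 0.0192). The call was lost without AireKO replicate 2 (−1.26, adjusted p = 0.0848) or replicate 3 (−1.41, 0.0749). Apob gave 187, 369 and 142 CPM in AireKO, a range that enclosed the 179 to 327 CPM of Ctrl (log2 −0.11 ± 0.59, adjusted p = 0.919). Apoa1 gave 23.3, 11 and 13.3 CPM (−0.66 ± 0.46, adjusted p = 0.302) and Apoh 4.11, 5.51 and 1.70 CPM (−0.13 ± 0.64, 0.908), both overlapping Ctrl. Ahsg, not tested, gave 1.37, 0.689 and 1.41 CPM against 0 to 2.58 CPM in Ctrl. Thymocyte markers summed to 55.5 to 90.2 CPM in AireKO against 96.0 to 119 in Ctrl (1 of 7 lower, none at 0). Of 6 mesenchyme markers 3 were lower and 2 higher (250 to 350 CPM against 242 to 317, Pdgfra at 0 in AireKO), and 2 of 6 myeloid markers were lower (256 to 394 against 257 to 278, none at 0), and the part of these markers in the result was not tested.

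Alb, Afp, Fga, Fgb and Apoa2 were called lower with AireKO in mTEChi of both ages. The log2 fold change of Apob was −2.01 ± 0.33 in adults and −0.11 ± 0.59 in neonates, that of Apoa1 −2.60 ± 0.34 and −0.66 ± 0.46, and that of Ambp −4.04 ± 0.51 and −0.83 ± 0.26. Apoa2 gave −1.40 ± 0.36 and −1.42 ± 0.44. The difference between ages was not tested, and the adult AireKO mTEChi libraries are those without mitochondrial counts while the neonatal ones held 7923 to 10410.

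Over all 17 libraries of mice without Aire, of both ages and fractions, 48011473 counts included 0 of Fga and 2 of Fgb, the latter in adult mTEClo AireKO replicate 3. Alb had 15 counts in 9 of the 17 libraries and Afp 35 in 10, with at most 4 and 8 in a library. Apob was read in all 17, with 2891 counts in all. The 30 libraries with Aire, with 88118480 counts, held 508 of Fga, 759 of Fgb, 941 of Alb, 539 of Afp and 11122 of Apob.

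**Figure D4:**
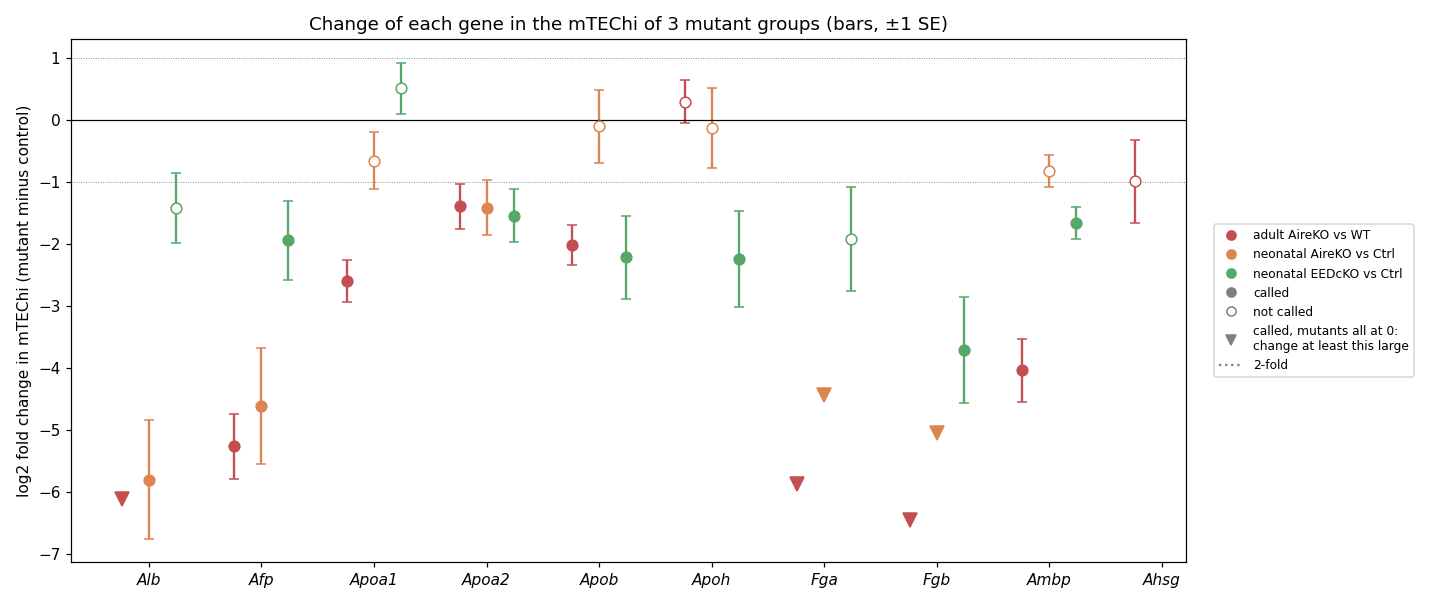
Log2 fold change ± SE of each gene in mTEChi for adult AireKO against WT, neonatal AireKO against Ctrl and neonatal EEDcKO against Ctrl, with dotted lines at a 2-fold change. Triangles mark genes with a count of 0 in every mutant library, whose change is at least as large as drawn. Alb, Afp, Fga and Fgb lay lower in both AireKO comparisons than in EEDcKO, while Apob and Apoh lay near 0 in neonatal AireKO and below −2 in EEDcKO.

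Deletion of Eed from thymic epithelium lowered 6 of 9 members in neonatal mTEChi, against 13.9% of all genes called and 5.4% called lower. None rose, the median log2 fold change was −1.92, and that of all genes −0.001. The 6 were Afp, Apoa2, Apob, Apoh, Fgb and Ambp. This comparison shares its Ctrl libraries with that of AireKO, so the values below and above are not independent of each other.

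Apob gave 147, 18.4 and 12.3 CPM in the EEDcKO libraries of 6, 2 to 3 and 1 days, against 179 to 327 CPM in Ctrl (4.20-fold lower, log2 −2.2 ± 0.67, adjusted p = 0.014). Apoa2 gave 8.05, 3.06 and 2.52 CPM against 9.37 to 16.9 CPM (−1.55 ± 0.43, adjusted p = 0.00824). Apoh gave 1.24, 0.656 and 0.629 CPM against 5.06, 0.578, 3.85, 5.28 and 3.51 CPM (−2.24 ± 0.77, adjusted p = 0.0287), with Ctrl replicate 2 as low as EEDcKO. EEDcKO replicate 1, the 6-day library, was the highest of the 3 in each of these genes. Apoa1 went the other way without passing the test, at 47.7, 26.9 and 32.4 CPM against 15.2 to 38.1 CPM (0.51 ± 0.42, adjusted p = 0.374).

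Ambp gave 3.10, 4.59 and 4.40 CPM and was 3.33-fold lower than in Ctrl (log2 −1.66 ± 0.26, adjusted p = 6.48e-05), with no overlap. Fgb gave 5.57, 0 and 0 CPM against 12.9 to 17.1 CPM in Ctrl (8.24-fold lower, −3.71 ± 0.85, adjusted p = 0.0031). DESeq2 did not call Fgb (−3.14, adjusted p = 0.0796). Fga had the same order, at 10.5, 0.437 and 0 CPM against 6.93 to 13.8 CPM, and was not called (−1.92 ± 0.84, adjusted p = 0.0883). Without EEDcKO replicate 1, Fga passed the test at −5.11 (adjusted p = 0.000311).

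Afp gave 3.10, 7.87 and 0.315 CPM in EEDcKO against 7.03 to 28.9 CPM in Ctrl (log2 −1.94 ± 0.64, adjusted p = 0.023). Alb gave 15.5, 1.53 and 16.7 CPM against 19.0 to 41.5 CPM (−1.42 ± 0.57, adjusted p = 0.0563), so its groups did not overlap while its adjusted p missed the threshold. Under 5 of 10 other settings Alb was called. Ahsg, not tested, gave 2.48, 3.72 and 3.77 CPM in EEDcKO against 0.563, 0, 1.10, 1.85 and 2.58 CPM in Ctrl.

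Several of these calls rested on single libraries. Without EEDcKO replicate 2 or 3, only 3 members were called. Apob then gave −1.72 (adjusted p = 0.0965) or −1.68 (0.0838), Apoa2 −1.32 (0.0657) or −1.26 (0.0596), and Apoh −2.10 (0.12) or −2.11 (0.097). Apoh was also lost without Ctrl replicate 1 (−2.14, 0.0508) or 4 (−2.07, 0.062). Afp was lost without EEDcKO replicate 1 (−1.82, 0.0561) or 3 (−1.37, 0.111), or Ctrl replicate 2 (−1.66, 0.0594), and with sex as a term (−1.84, 0.0907). Ambp and Fgb were called without any 1 library. Fgb gave −2.82 without EEDcKO replicate 2 and −3.04 without replicate 3, and without replicate 1 it had a count of 0 in both remaining libraries. Apob gave −3.98 without EEDcKO replicate 1, and Afp −3.52 without replicate 2.

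Mesenchyme markers were higher in EEDcKO mTEChi, with 3 of 6 called and a summed level of 492 to 778 CPM against 242 to 317 in Ctrl, and none at 0 in either group. Thymocyte markers summed to 48.3 to 103 CPM against 96.0 to 119 (1 of 7 lower, none at 0). Their part in the lower member levels was not tested.

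In neonatal mTEClo, EEDcKO lowered Apob and Apoa2, 2 of 9 members, against 15.7% of all genes called and 6.22% called lower. The median log2 fold change was −1.91, with −0.006 for all genes. Apob gave 2.02, 10.8, 4.69 and 1.26 CPM against 126, 57.9 and 46.7 CPM in Ctrl, a 16.4-fold decrease (log2 −4.12 ± 0.81, adjusted p = 0.000547) without overlap. Apoa2 gave 0.673, 0.719, 1.71 and 0.252 CPM against 4.05, 2.46 and 3.94 CPM (−1.91 ± 0.57, adjusted p = 0.0131). Without Ctrl replicate 1 the call of Apoa2 was lost (−1.82, 0.0617). Apoa2 gave −2.63 without EEDcKO replicate 3, and Apob −4.78 without EEDcKO replicate 2.

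Ambp gave 4.38, 2.51, 2.99 and 2.52 CPM in mTEClo EEDcKO, below the 5.06 to 5.74 CPM of Ctrl but by less than 2-fold (log2 −0.80 ± 0.29, adjusted p = 0.0401). Fga held 3 counts, all in replicate 1, and gave a ratio of pooled counts of 8.86 (95% exact interval 2.47 to 48.1, adjusted p = 0.121). Alb (4.04, 0, 2.77 and 0.252 CPM, log2 −1.40, adjusted p = 0.171) and Afp (2.02, 1.08, 0.213 and 0.252 CPM, −1.63, 0.197) were spread widely between libraries. Fgb (−2.04, adjusted p = 0.132) and Apoa1 (−0.46, 0.552) did not pass either. Markers moved here too: 7 of 7 cortical epithelial markers were lower (summed level 440 to 1132 CPM against 2483 to 3736 in Ctrl) and 5 of 6 mesenchyme markers higher (496 to 683 CPM against 121 to 129), with none at 0, and their part in the result was not tested.

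Adding loss of Aire to loss of EED, and the reverse, was read from the AireEEDdKO mice. Against AireKO mTEChi, AireEEDdKO lowered Apoa1 alone, 1 of 9 members, where 9.47% of all genes were called. Apoa1 gave 2.94, 1.16 and 4.17 CPM against 23.3, 11 and 13.3 CPM (5.76-fold lower, log2 −2.38 ± 0.65, adjusted p = 0.0133). Its call was lost without AireKO replicate 1 (−2.05, 0.0569) or AireEEDdKO replicate 2 (−2.07, 0.056). Apob gave 105, 44.5 and 54.9 CPM against 187, 369 and 142 CPM, with no overlap (−1.77 ± 0.70, adjusted p = 0.0865).

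No label ties the libraries of this comparison. Same-numbered libraries were taken as paired from their correlation alone (0.108 to 0.213), and they also shared age and sex label. With the replicate block 2 of 2 members tested were called, Apoa1 and Apob, the latter at −1.68 (adjusted p = 0.00153). Afp gave 4.12, 4.04 and 0.962 CPM in AireEEDdKO, all above the 0 to 0.848 CPM of AireKO, without passing the test (2.12 ± 1.21, adjusted p = 0.252). Fga and Fgb had a count of 0 in every library of both groups. Alb had 7 counts against 3, a ratio of 2.3 (95% exact interval 0.525 to 13.8). Mesenchyme markers were higher in AireEEDdKO (2 of 6, summed level 403 to 727 CPM against 250 to 350, Pdgfra at 0 in AireKO), and their part in these differences was not tested.

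Against EEDcKO mTEChi, AireEEDdKO lowered 2 of 9 members, where 13.3% of all genes were called. Apoa1 fell 12.9-fold from 47.7, 26.9 and 32.4 CPM (log2 −3.55 ± 0.61, adjusted p = 0.000321). Alb gave 2.35, 1.16 and 0.321 CPM against 15.5, 1.53 and 16.7 CPM (−3.21 ± 0.91, adjusted p = 0.0142), and its groups overlapped at EEDcKO replicate 2. The call of Alb was lost without EEDcKO replicate 3 (−2.61, 0.0863) or AireEEDdKO replicate 3 (−2.57, 0.0731), and with age as a term (−2.55, 0.153), and Alb gave −3.87 without EEDcKO replicate 2 and −3.98 without AireEEDdKO replicate 1. Fga, at 0 in AireEEDdKO and 10.5, 0.437 and 0 CPM in EEDcKO, gave an adjusted p of 0.0663, and was called without EEDcKO replicate 2 (adjusted p = 0.0362) or 3 (0.0289).

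The interaction of the 2 defects in mTEChi called 0 of 9 members, where 1.25% of all genes were called (edgeR). At an unadjusted p under 0.05 there were 2, and DESeq2 called 2. These were Apoa1, whose difference with loss of Aire was more negative in the absence of EED (log2 −2.88 ± 0.77, adjusted p = 0.0572), and Afp, whose difference was less negative (4.06, adjusted p = 0.121). Apoa1 ranged from 1.16 to 4.17 CPM in AireEEDdKO, and all libraries of the other 3 neonatal mTEChi groups were at 11 CPM or more.

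In mTEClo, AireEEDdKO against EEDcKO gave 0 of 9 members (5.30% of all genes called, edgeR), with 2 at an unadjusted p under 0.05 and 0 by DESeq2. These were Alb, at 0.631, 0.411 and 0 CPM (log2 −2.32, adjusted p = 0.216), and Apob, at 15.8, 32.2 and 1.39 CPM (1.9, adjusted p = 0.199). Neonatal mTEClo of AireKO mice was not analysed here.

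**Figure D5:**
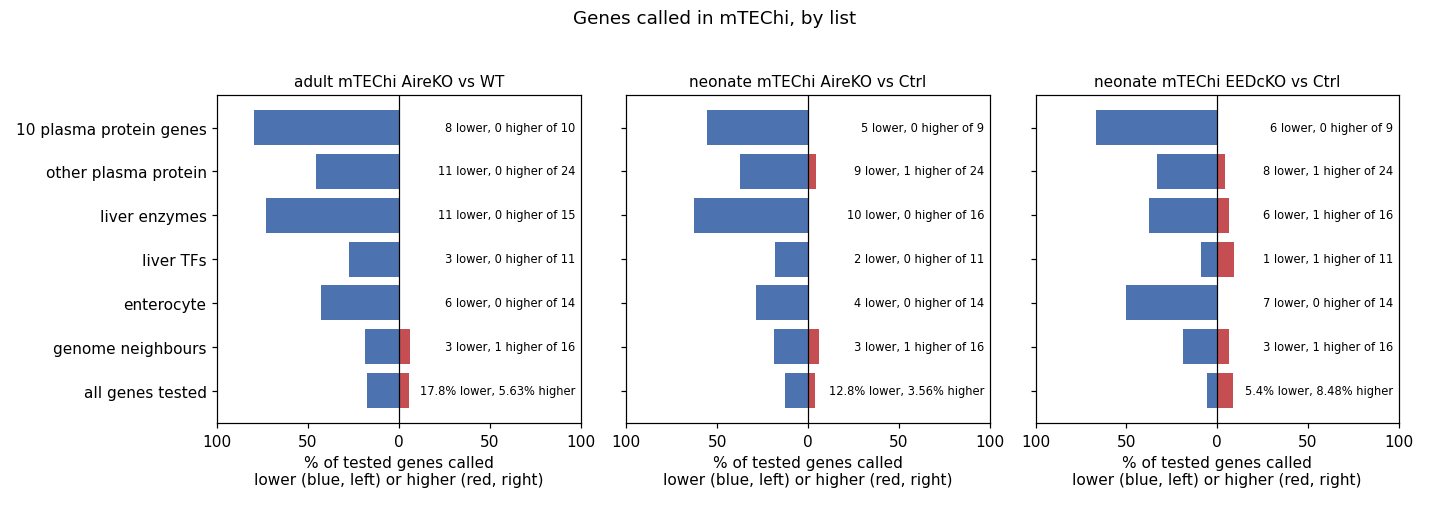
Share of tested genes called lower (left) or higher (right) in 3 mTEChi comparisons, for the 10 plasma protein genes, the related gene lists and all genes, in percent. The members were called lower in 8 of 10, 5 of 9 and 6 of 9 cases, against 17.8%, 12.8% and 5.4% of all genes.

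Other liver genes were read beside the members. Of 24 other plasma protein genes tested, 11 fell in adult mTEChi AireKO and none rose (median log2 fold change −1.18). In neonatal mTEChi AireKO 9 fell and 1 rose (median −0.53), and in EEDcKO 8 fell and 1 rose (median −0.75). Fgg, the gamma chain that completes fibrinogen and lies 11 kb from Fga, had a mean of 0 against 29.7 CPM in adult AireKO, 0.228 against 28.2 CPM in neonatal AireKO and 10.6 against 28.2 CPM in EEDcKO (adjusted p = 1.47e-07, 4.66e-05 and 0.0296). All 3 fibrinogen chains were therefore called in both AireKO comparisons. Itih3, whose product binds the bikunin made from Ambp, was called lower in all 3 (log2 −5.39, −5.91 and −1.93).

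Other secreted proteins gave other patterns. Serpinc1, antithrombin, was at 41.8 CPM in adult mTEChi AireKO and 41.2 in WT (log2 0.01 ± 0.19, adjusted p = 0.954). Trf, transferrin, fell in adult AireKO (−3.97 ± 0.62) and rose in neonatal AireKO (1.14 ± 0.25, adjusted p = 0.00162). Kng1, kininogen, fell in both AireKO comparisons (−7.01 and −4.92), and gave 0.06 in EEDcKO (adjusted p = 0.935).

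Liver enzymes that are not secreted also fell with AireKO: 11 of 15 tested in adults and 10 of 16 in neonates, with none higher, and 6 of 16 with EEDcKO, with 1 higher. Cps1, the entry enzyme of the urea cycle, fell by 5.31 ± 0.41 and 3.19 ± 0.45 on the log2 scale in adult and neonatal AireKO. Pck1, a gluconeogenic enzyme shared by liver and gut, fell in EEDcKO (−2.91 ± 0.65, adjusted p = 0.00155) but gave −0.08 and 0.26 in the AireKO comparisons (adjusted p = 0.825 and 0.742). Summed liver enzyme levels were 499 to 580 CPM in adult mTEChi WT and 366 to 495 in AireKO, where Tat, Otc, Cyp7a1 and Cyp2e1 were at 0. In neonates they were 459 to 500 CPM in Ctrl, 292 to 355 in AireKO (Otc, Cyp7a1 and Cyp2e1 at 0) and 270 to 307 in EEDcKO (Otc and Cyp2e1 at 0).

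Genes of enterocytes, the other main source of Apob and Apoa1, fell in 6 of 14 cases in adult AireKO, 4 of 14 in neonatal AireKO and 7 of 14 in EEDcKO, with none higher. Mttp, the transfer protein that loads lipid onto Apob, fell in EEDcKO from 58.9 to 14.1 CPM (log2 −2.01 ± 0.25, adjusted p = 4.58e-06). In AireKO it was higher by less than 2-fold in adults (0.43 ± 0.15, adjusted p = 0.0158) and neonates (0.72 ± 0.21, 0.0134). Sis, sucrase-isomaltase, fell in EEDcKO as well (−3.38 ± 0.48, adjusted p = 2.31e-05). Alpi, an intestinal phosphatase, fell in adult (−5.47 ± 0.50) and neonatal AireKO (−4.31 ± 0.62) and gave −0.26 in EEDcKO (adjusted p = 0.645). Fabp2, an intestinal fatty-acid carrier, fell in all 3 (log2 −6.84, −4.22 and −5.06).

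Among 11 liver transcription factors tested, 3 were lower in adult AireKO, 2 lower in neonatal AireKO, and 1 lower with 1 higher in EEDcKO, where 17.8%, 12.8% and 5.4% of all genes were called lower. Hnf4a fell in adult (−2.18 ± 0.38) and neonatal AireKO (−2.50 ± 0.54), and its relative Hnf4g was called lower in EEDcKO and in neither AireKO comparison (−2.33 ± 0.38, adjusted p = 0.000102).

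Nearest neighbours in the genome were called in 4 of 16 cases in each of the 3 mTEChi comparisons. Of all genes, 23.4% were called in adult AireKO, 16.4% in neonatal AireKO and 13.9% in EEDcKO. Apoc3, 2.47 kb from Apoa1 and an inhibitor of lipoprotein lipase, was at 17.1 CPM in adult AireKO and 16.7 in WT (log2 0.06 ± 0.24), while Apoa1 fell. In EEDcKO Apoc3 fell from 9.35 to 1.52 CPM (−2.52 ± 0.44, adjusted p = 0.000197), while Apoa1 did not pass the test. Afm, 10.0 kb beyond Afp and a further albumin relative, was not called in any of the 3 (adjusted p = 0.0726, 0.923 and 0.518), and neither was Fetub beside Ahsg. Fcer1g, an Fc receptor chain beside Apoa2, rose in both AireKO comparisons (1.81 ± 0.20 and 1.41 ± 0.36) and fell in EEDcKO (−1.69 ± 0.44), whereas Apoa2 fell in all 3.

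Across the 11 group means the members fell into alike and unlike pairs. Pearson r was taken on log2 CPM with a prior count of 2, each table centred on its own mean. Differences in level between the adult and neonatal tables therefore do not enter. The r values are a description, since the groups share fractions and tables, and the labels do not say whether they share mice. Fga and Fgb were most alike (r = 0.989), followed by Alb and Fga (0.983) and Alb and Fgb (0.956). Afp reached 0.949 with Fga, 0.944 with Alb and 0.937 with Fgb. Next came Apoa2 and Apob (0.918), Apob and Apoh (0.913), and Apoa1 and Apoa2 (0.869). By contrast, Alb and Apob reached 0.598, Alb and Apoh 0.383, and Apoh and Ambp 0.122.

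Over the 18546 genes tested in both tables, the genes most like Alb were Tmem74bos and Syndig1l (r = 0.994 each), and those most like Fga were H2-M1 and Tph2 (0.996 each), the latter the tryptophan hydroxylase of serotonin neurons. Fgb was closest to A2m, a protease inhibitor of plasma (0.994), and Afp to Gm4926 (0.989) and Rfx4 (0.987). Apoa1 was closest to Car6 (0.987), a secreted carbonic anhydrase. Apoa2 was closest to Apod (0.986), Apob to Gm4257 and Zdhhc13 (0.98 each), Apoh to Fmo5 (0.991) and Ambp to Gm44851 (0.941).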

How the data were processed

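RNA was sequenced from sorted thymic epithelial cells as full-length total-RNA libraries, primed with random and oligo-dT primers. The authors trimmed reads with fastp (0.20.0), aligned them to mm10 with STAR (2.7.3a), removed low-quality alignments with SAMtools (1.9) and duplicates with Picard (2.21.1), and deposited raw counts per Ensembl gene made with HTSeq (0.11.2), without strand. The Ensembl release is not given in the sources used here. Each of the 2 count tables was fitted whole with edgeR (4.0.16, R 4.3.3): filterByExpr, TMM scaling, quasi-likelihood F-test on group alone, Benjamini-Hochberg over all genes. A gene was called where its adjusted p was below 0.05 and it changed by 2-fold or more. SE is the log2 fold change divided by the square root of F, and CPM are TMM-scaled. DESeq2 (1.42.0) was an alternative, as were other filters, scalings, covariates and left-out libraries. Depth (1578579 to 4817418 counts per library) limited genes under about 1 CPM to a few counts. Intervals and floors cover counting error only.

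Genes named were all members, Aire and Eed, and genes of lists of other plasma protein genes, liver enzymes, liver transcription factors, enterocyte genes and genome neighbours. The members and lists were chosen with earlier results of these data known. Scripts were tested on simulated data. Sequences came from RefSeq (GRCm38.p6).

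Replicate numbers were checked by the correlation of same-numbered libraries' deviations from their group means. Every pair was above 0.1 for adult AireKO mTEChi and mTEClo (0.139 to 0.222) and for neonatal mTEChi AireEEDdKO and AireKO (0.108 to 0.213), which were taken as paired from these data, since no label ties them. The other comparisons did not meet this. Some genes that these rules name are not reported here.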

Additional observations from a re-analysis of the deposited data

Results flagged for a closer look

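Of 55 sets of 4 to 10 libraries (1 member in 1 group), 8 held a library apart from the rest by Dixon's test. Its chance rate of about 1 in 20 is for continuous values and does not hold for low counts tied at 0. Most of the 8 were 1 to 3 counts in a group otherwise near 0. In adult mTEClo WT, Fga reached 0.636 CPM (1 count) in replicate 2 and Fgb 1.72 CPM (3 counts) in replicate 1. In adult mTEClo AireKO, Alb reached 0.243 CPM (1 count) in replicate 4, Fgb 0.596 CPM (2 counts) in replicate 3 and Apoa1 5.01 CPM (8 counts) in replicate 2, where the next library had 0.728 CPM. In neonatal mTEClo EEDcKO, Apoh reached 0.719 CPM (2 counts) in replicate 2 and Fga 1.01 CPM (3 counts) in replicate 1. Afp was low in the remaining case, 0 CPM in adult mTEChi AireKO replicate 3 against 0.409 CPM in the next library.

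The effect of AireKO differed between adult mTEChi and mTEClo, by an interaction test in edgeR, for Ambp (−4.42 on the log2 scale, adjusted p = 6.21e-06), Fgb (−9.04, adjusted p = 0.0111), Alb (−8.21, adjusted p = 0.0335) and Ahsg (−2.14, adjusted p = 0.0416). The sets behind Fgb and Alb include the libraries with 2 counts and 1 count above, and Ambp and Ahsg the high mTEClo AireKO replicates 3 and 4, which have no mitochondrial counts. For Fgb and Alb, at 0 in every mTEChi AireKO library, the size of the value depends on the small count added before taking logs.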

How the results depend on the processing

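Where a setting moved the number of called members by over 1.5 times, the cause was not tested unless fewer genes were tested. For adult mTEChi AireKO against WT (8 called) only kind of library as a term moved it, to 4. For adult mTEClo AireKO against WT (2) it was 1 with a filter of 10 counts in all libraries of a group, sex or age as a term, libraries with mitochondrial counts (Ambp, in place of both), the compared groups alone (4 members tested) or DESeq2, 0 with the replicate block (2 tested), and 0 to 2 without 1 library. For adult AireKO mTEChi against mTEClo (6) it was 3 with the compared groups alone or the block (3 tested). For the adult interaction (4) it was 2 with the block and 2 to 5 without 1 library. For neonatal mTEChi EEDcKO (6) it was 3 to 6 without 1 library. For AireEEDdKO against AireKO (1) it was 2 with no filter, and 2 of 2 tested with the compared groups alone or the block, and 0 to 1 without 1 library. For AireEEDdKO against EEDcKO in mTEChi (2) it was 1 with age, the compared groups alone or the block, and 1 to 3 without 1 library. For the Aire and EED interaction (0) it was 2 with no filter, the block or DESeq2, and 1 with age or the compared groups alone. For mTEClo EEDcKO (2) it was 1 with the compared groups alone or the block, and 1 to 3 without 1 library. For mTEClo AireEEDdKO against EEDcKO (0) it was 1 with no filter. For neonatal Ctrl mTEChi against mTEClo (9) it was 4 to 8 without 1 library. Direction turned for Ambp in adult mTEClo AireKO (−0.28 with age, −1.30 with mitochondrial libraries, −0.05 to 0.61 without 1 library), Ahsg there (−1.14 with mitochondrial libraries), Apob in neonatal mTEChi AireKO (0.07 with sex, −0.65 to 0.18 without 1 library) and Apoh there (0.34 with age, −0.56 to 0.37 without 1 library), none of them called except Ahsg in the fit reported and Ambp with mitochondrial libraries. Of the 96 differences followed (26 within 1 SE of 0 were not), other settings left 851 values on their side of the threshold, newly called 31, lost 22 and reversed 5. Scaling by library size alone moved the share of calls that were higher over all genes from 21.7% to 10.4% in neonatal mTEChi AireKO and from 64.4% to 77.0% in the Aire and EED interaction.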
